A study of Macaca mulatta with 36 samples.

Results

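The genes described here are 4 genes of the major histocompatibility complex (MHC) class II presentation route, MAMU-DRA, MAMU-DMA, CD74 and IFI30, measured in the hippocampus of rhesus macaques with and without encephalitis. Members were all probe sets to which the probe-to-gene table gives one of these symbols and no other. That rule uses no measured value, but the 4 genes were picked with earlier results of these data known, so their counts and ranks are a description. The rule found 8 of the 52865 probe sets of the array, 3 for MAMU-DRA, 3 for MAMU-DMA, 1 for CD74 and 1 for IFI30, for 4 of the 14132 genes with a name. The probe sets of a gene are numbered by brightness. Those of MAMU-DRA are MmugDNA.1046.1.S1_s_at, MmugDNA.1028.1.S1_at and MmugDNA.1046.1.S1_at. For MAMU-DMA, probe set 1 is MmugDNA.18015.1.S1_at and probe set 3 is MmugDNA.1533.1.S1_at. IFI30 is read by MmunewRS.536.1.S1_at.

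Affymetrix rhesus arrays read total RNA of hippocampal tissue from 18 male Macaca mulatta, with 2 arrays for each animal. Simian immunodeficiency virus encephalitis, SIVE, is a brain inflammation of macaques infected with that virus, and 9 animals carry this label. The other 9 animals are labelled Control. Both groups hold animals with an anti-CD8 label, which stands for an antibody given to macaques to deplete CD8 T cells. SIVE 1 to SIVE 4 received it and were all 6 years old. SIVE 5 to SIVE 9 did not receive it and were 2 to 5 years old. Control 8 and Control 9 received it and were 3 to 4 years old, and Control 1 to Control 7, aged 3 to 8 years, did not. Virus strain, dose and time after infection are not given in the sources used here, and no group was infected without encephalitis.

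MHC class II molecules carry peptides from engulfed proteins to the cell surface, where CD4 T cells read them. MAMU-DRA encodes the alpha chain of DR, the surface molecule itself, and CD74 is the invariant chain that blocks its groove until the late endosome. There IFI30, a thiol reductase also called GILT, opens the disulfide bonds of the antigen, and MAMU-DMA, the alpha chain of the peptide editor DM, helps load the peptide. In brain, class II is known mainly from microglia, perivascular macrophages and invading blood cells. In human and mouse cells CIITA is the switch of class II transcription and interferon gamma its best known inducer. Sequences of the probes, promoters and proteins are not used here.

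The 36 arrays had medians of 5.59 to 5.75 on the log2 scale of the robust multi-array average (RMA) signal. The median over the tested probe sets was 5.65, which serves below as the mark between brighter and dimmer probe sets. Transcripts of hippocampal neurons were well above the median: SYT1, a synaptic vesicle protein, averaged 12.15 in SIVE and 12.21 in Control. PROX1, a marker of dentate granule cells, averaged 8.44 in SIVE and 8.62 in Control. The brightest probe set of the virus lay at 7.53 to 11.22 in the 9 SIVE animals and at 3.28 to 4.25 in the 9 Control animals. SIVE 2, SIVE 3 and Control 8 stood apart in the signal at the 3′ end of control transcripts minus that at the 5′ end, with 0.948 to 1.46 (log2) against 0.105 to 0.465 for the remaining 15 animals. The member results of each comparison are also given without these 3 animals; the levels of the marker lists are given with them.

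The question of the first comparison was how the class II presentation genes differ between the hippocampus of SIVE animals and that of Control animals. All 4 genes were higher in SIVE. By the brightest probe set of each gene, MAMU-DRA was 7.10-fold higher, IFI30 5.19-fold, CD74 4.18-fold and MAMU-DMA 2.21-fold. By limma's moderated test with Benjamini-Hochberg adjustment over 52707 probe sets, 8 of the 8 member probe sets were called higher, where 3.63% of all probe sets were. In 7 of the 8, the lowest SIVE animal lay above the highest Control animal, a pattern that 1.2% of all probe sets showed in that direction. Ranked by the size of the rise among 14132 named genes, MAMU-DRA was at place 36, IFI30 at place 52, CD74 at place 74 and MAMU-DMA at place 182. The median difference over all named genes was -0.02 (log2). In whole tissue, more cells of a type and more RNA per cell cannot be told apart.

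MAMU-DRA, the chain of the surface molecule, had the largest rise of the 4 genes by probe set 1. Its levels in SIVE ran from 10.25 through a median of 10.65 to 11.44, against 6.52 through 8.22 to 8.60 in Control. The groups were separated by a gap wider than the range within SIVE animals. The means were 10.79 ± 0.43 in SIVE and 7.97 ± 0.72 in Control (SD, n = 9 each), a difference of 2.83 ± 0.26 (SE, log2; 95% interval 2.28 to 3.37; adjusted p = 3.96e-07). Probe set 2 ran from 9.48 through 9.85 to 10.72 in SIVE and from 5.94 through 7.42 to 7.93 in Control, a difference of 2.74 ± 0.25 (adjusted p = 4.87e-07). Probe set 3 ran from 7.21 through 7.93 to 8.69 in SIVE and from 3.50 through 4.83 to 5.63 in Control. All of its Control values lay below the median probe set, and its difference was the largest of the 8, at 3.30 ± 0.25 (adjusted p = 2.76e-08), or 9.88-fold. The name of probe set 1 ends in the code that Affymetrix gives to sets shared by several transcripts. The sets 2 and 3, whose names lack that code, gave the same direction.

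CD74, the chaperone of the DR chains, was also apart between the groups. Its levels ran from 9.11 through 9.77 to 10.40 in SIVE and from 6.80 through 7.85 to 8.25 in Control, with no overlap between the groups. The means were 9.79 ± 0.41 in SIVE and 7.72 ± 0.51 in Control (SD, n = 9 each), and the difference was 2.06 ± 0.20 (SE, log2; 95% interval 1.64 to 2.49; adjusted p = 9.70e-07).

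MAMU-DMA, the chain of the peptide editor, differed least of the 4 genes by its brightest probe set, and its 3 probe sets differed in size. Probe set 1 ran from 7.68 through 8.04 to 8.59 in SIVE and from 5.97 through 6.98 to 7.39 in Control, a difference of 1.15 ± 0.17 (95% interval 0.80 to 1.50; adjusted p = 0.000149). Probe set 3 ran from 6.58 through 7.23 to 8.87 in SIVE and from 4.55 through 5.41 to 6.13 in Control, a difference of 2.08 ± 0.27 (95% interval 1.52 to 2.64; adjusted p = 3.57e-05). In both probe sets the groups did not overlap. Probe set 2 was the exception among the members: it ran from 7.02 through 7.41 to 7.60 in SIVE and from 6.24 through 6.75 to 7.09 in Control, so the highest Control animal lay above the lowest SIVE animal. Its difference of 0.63 ± 0.11 (95% interval 0.40 to 0.86; adjusted p = 0.00117) was the smallest of the 8. The 3 intervals run from 1.32-fold to 6.23-fold, so the size of the MAMU-DMA change depends on the probe set that reads it, while its direction does not.

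IFI30, the lysosomal reductase, ran from 8.22 through 8.50 to 9.80 in SIVE and from 5.86 through 6.38 to 7.17 in Control. The groups did not overlap, and the SIVE median lay close to the low end of the SIVE range, with SIVE 2 at 9.80 and SIVE 7 at 9.76 above the other 7 animals. The means were 8.79 ± 0.61 in SIVE and 6.41 ± 0.39 in Control (SD, n = 9 each), a difference of 2.38 ± 0.22 (SE, log2; 95% interval 1.91 to 2.85; adjusted p = 5.71e-07).

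**Figure D1:**
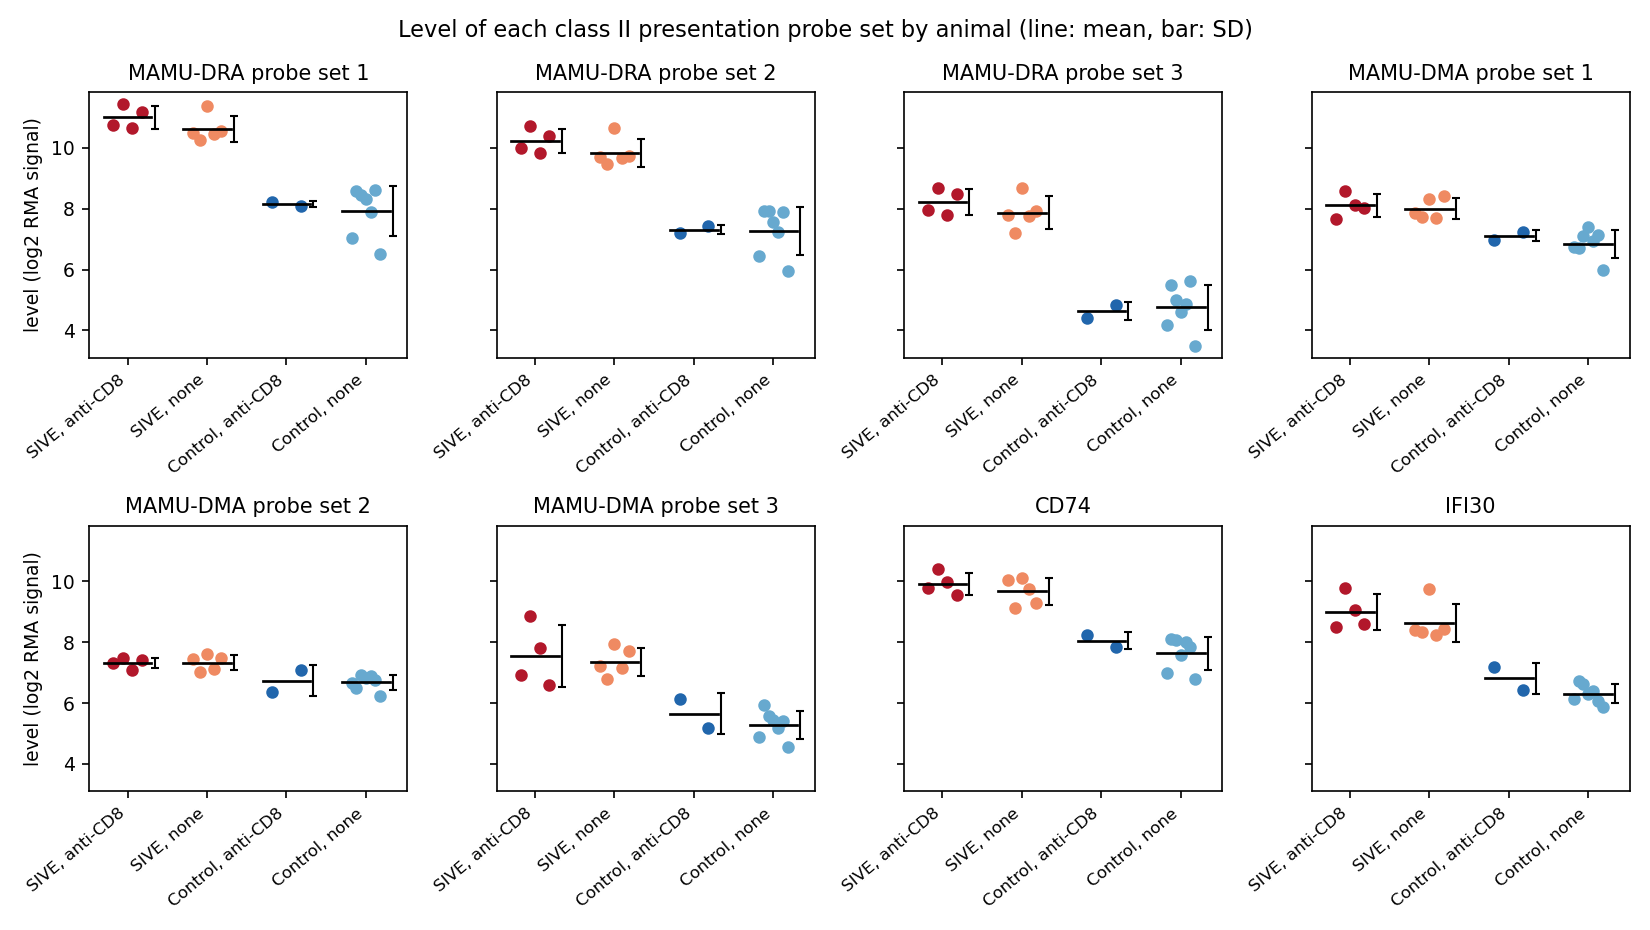
Level of each member probe set (log2 RMA signal, y axis) in each animal, by group and anti-CD8 label (x axis); lines are means and bars SDs over animals. In every panel but that of MAMU-DMA probe set 2, the 9 SIVE animals sit above the 9 Control animals.

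By the median over animals, the spread between the arrays of an animal was smaller than that between animals. The median SD between the 2 arrays of an animal was 0.06 to 0.17 (log2) over the 8 probe sets, while the SD between animals was 0.21 to 0.72 in SIVE and 0.28 to 0.72 in Control. In single animals the arrays differed more, with an SD of 0.57 in Control 4 for MAMU-DRA probe set 3. Control 9, which received anti-CD8, had the largest array SD in MAMU-DRA probe sets 1 and 2 (0.44 and 0.22). The same held for MAMU-DMA probe sets 1 and 3 (0.20 and 0.31). For MAMU-DRA probe set 1 the SD between SIVE animals was 0.43. For 7 of the 8 probe sets, each of the 18 SIVE arrays lay above each of the 18 Control arrays, the exception being MAMU-DMA probe set 2. Leaving out each animal in turn kept the difference of MAMU-DRA probe set 1 between 2.65 and 2.91, that of CD74 between 1.95 and 2.15, that of IFI30 between 2.25 and 2.47 and that of MAMU-DMA probe set 2 between 0.58 and 0.68. Without SIVE 2, SIVE 3 and Control 8, 8 of the 8 probe sets were again called, with differences of 2.79 for MAMU-DRA probe set 1, 2.01 for CD74, 2.29 for IFI30 and 1.07 for MAMU-DMA probe set 1.

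Whether the genes changed by unequal amounts was tested within animals, as the level of one gene minus that of another by their brightest probe sets. Such a value holds the fixed brightness of each probe set, so only its difference between the groups is read. MAMU-DRA minus MAMU-DMA averaged 2.74 ± 0.33 in SIVE and 1.06 ± 0.48 in Control (SD, n = 9 each), and the groups did not overlap. The rise of MAMU-DRA thus exceeded that of MAMU-DMA by 1.68 (log2; exact two-sided permutation test, p = 0.000247 after adjustment over 6 pairs). MAMU-DRA also rose more than CD74, by 0.76 (exact permutation test, adjusted p = 0.00136). MAMU-DMA rose less than CD74, with a difference of -0.92 (exact permutation test, adjusted p = 0.000987), and less than IFI30, with a difference of -1.23 (exact permutation test, adjusted p = 0.00037). The 2 other pairs did not pass: MAMU-DRA minus IFI30 differed by 0.45 (exact permutation test, adjusted p = 0.0792) and CD74 minus IFI30 by -0.31 (exact permutation test, adjusted p = 0.0885). These results turn on single animals and on the probe sets used: MAMU-DRA minus IFI30 reached 0.57 and an adjusted p of 0.0174 (exact permutation test) without Control 6, and CD74 minus IFI30 reached adjusted p values of 0.0344 without SIVE 5 and 0.0493 without SIVE 8 (exact permutation tests). With all probe sets of a gene averaged, MAMU-DRA minus IFI30 differed by 0.58 (exact permutation test, adjusted p = 0.0304). The 3 pairs with MAMU-DMA kept their direction and their call under that average. By probe set 3 alone MAMU-DMA rose by 2.08, against 2.06 for CD74, and pairs by that probe set were not tested. Without SIVE 2, SIVE 3 and Control 8 the 4 pairs were called again.

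The next comparison asked whether the difference was seen both with and without anti-CD8. Each of the 4 genes was higher in SIVE under both labels by its estimate, and no change of the effect between the labels was called. With anti-CD8, MAMU-DRA probe set 1 was at 10.75, 11.44, 10.65 and 11.19 in SIVE 1 to SIVE 4, against 8.22 and 8.09 in Control 8 and Control 9. The lowest of these SIVE animals was more than 2 log2 units above the higher Control animal. CD74 was at 9.77, 10.40, 9.98 and 9.56 in the 4 SIVE animals, against 8.25 and 7.85 in the 2 Control animals, again with no overlap. IFI30 was at 8.50, 9.80, 9.06 and 8.60 in the 4 SIVE animals, against 7.17 and 6.44 in the 2 Control animals. MAMU-DMA probe set 1 was at 7.68, 8.59, 8.13 and 8.04 in the 4 SIVE animals, against 6.98 and 7.24 in the 2 Control animals, which left a narrow gap.

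By limma, 5 of the 8 member probe sets were called higher in SIVE with anti-CD8, where 0.844% of all probe sets were. In 7 of the 8 the groups did not overlap, where 5.99% of all probe sets did not overlap in that direction. The called sets were those of MAMU-DRA, with differences of 2.85, 2.92 and 3.60 (log2), CD74 with 1.88 ± 0.37 (SE; adjusted p = 0.0155) and IFI30 with 2.18 ± 0.40 (SE; adjusted p = 0.00911). The 3 MAMU-DMA sets had differences of 1.00, 0.59 and 1.89 and adjusted p values of 0.148, 0.204 and 0.0898, so none was called. With anti-CD8 the SIVE animals were all 6 years old and the Control animals 3 to 4, so age and SIVE cannot be told apart in this comparison. These counts rest on few animals: without Control 9 the call was kept by 3 probe sets, those of MAMU-DRA, while CD74 had an adjusted p of 0.081 and IFI30 one of 0.0766. CD74 also lost the call without Control 8 (adjusted p = 0.0545), and MAMU-DMA probe set 3 gained it without SIVE 4 (adjusted p = 0.0467). Without SIVE 2, SIVE 3 and Control 8, which leaves 3 animals with anti-CD8, 0 of the 8 were called by limma, with differences of 2.87 for MAMU-DRA probe set 1 (adjusted p = 0.105), 1.81 for CD74 (adjusted p = 0.141) and 2.10 for IFI30 (adjusted p = 0.0854).

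Without anti-CD8, MAMU-DRA probe set 1 was at 10.48, 10.25, 11.38, 10.45 and 10.56 in SIVE 5 to SIVE 9, and ran from 6.52 through 8.31 to 8.60 in the 7 Control animals. SIVE 7 stood above the other 4 SIVE animals. CD74 was at 10.06, 9.11, 10.13, 9.76 and 9.31 in the same 5 animals and ran from 6.80 through 7.85 to 8.11 in Control. IFI30 was at 8.42, 8.33, 9.76, 8.22 and 8.43 in the 5 SIVE animals and ran from 5.86 through 6.30 to 6.73 in Control. In IFI30 the high value of SIVE 7 was again the only one above 9. MAMU-DMA probe set 1 was at 7.88, 7.73, 8.32, 7.70 and 8.40 in the 5 SIVE animals and ran from 5.97 through 6.92 to 7.39 in Control.

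By limma, 8 of the 8 member probe sets were called higher without anti-CD8, where 2.34% of all probe sets were, and in 8 of the 8 the groups did not overlap, where 2.53% of all probe sets did not overlap in that direction. The differences ran from 0.65 (log2) for MAMU-DMA probe set 2 to 3.12 for MAMU-DRA probe set 3. MAMU-DMA probe set 2 had the weakest support (adjusted p = 0.0176), and its call was lost without SIVE 5 (adjusted p = 0.0531), SIVE 7 (adjusted p = 0.0616) or SIVE 9 (adjusted p = 0.0568). CD74 differed by 2.04 ± 0.25 (SE; adjusted p = 5.40e-05) and IFI30 by 2.33 ± 0.27 (SE; adjusted p = 3.17e-05).

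The SIVE difference with anti-CD8 minus that without it was 0.14 for MAMU-DRA probe set 1 (95% interval -1.09 to 1.37, log2). It was -0.17 for CD74 (95% interval -1.10 to 0.77), -0.15 for IFI30 (95% interval -1.16 to 0.86) and -0.16 for MAMU-DMA probe set 1 (95% interval -0.95 to 0.64). By limma 0 of the 8 were called in this test, and 0 had an unadjusted p under 0.05; over all probe sets 0% were called. The intervals of the 8 probe sets ran from -1.47 to 1.69, so they hold changes of over 1 log2 unit in either direction. Without SIVE 2, SIVE 3 and Control 8 the change of the effect ran from -0.54 for MAMU-DMA probe set 1 to 0.25 for MAMU-DRA probe set 3, with 0 of the 8 called by limma at an adjusted p of 0.823 or above.

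**Figure D2:**
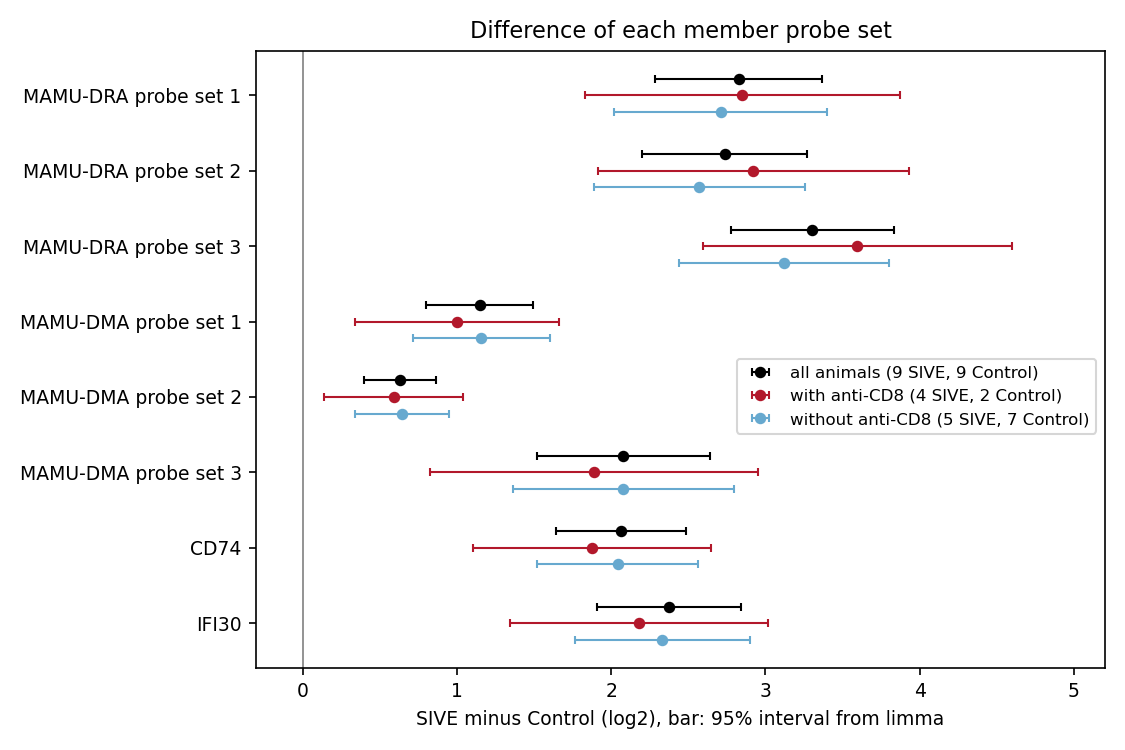
SIVE minus Control difference (log2, x axis) of each member probe set (rows) over all animals, with anti-CD8 and without it; points are limma estimates and bars 95% intervals. The 3 estimates of each probe set lie close together, and the bars are widest with anti-CD8, where 4 SIVE animals stand against 2 Control animals.

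Within the groups, anti-CD8 was set against no treatment. In SIVE the differences of the 8 probe sets ran from -0.01 to 0.39 (log2), and by limma 0 of the 8 were called (0 with an unadjusted p under 0.05), where 0.0019% of all probe sets were. MAMU-DRA probe set 1 averaged 11.01 ± 0.37 in the 4 treated animals and 10.62 ± 0.44 in the 5 untreated ones (SD), and the groups overlapped. The difference was 0.38 ± 0.37 (SE; 95% interval -0.41 to 1.17). In Control the differences ran from -0.13 to 0.51, and by limma 0 of the 8 were called (0 with an unadjusted p under 0.05), where 0% of all probe sets were. IFI30 had the largest of these, with levels of 7.17 and 6.44 in the 2 treated animals and of 5.86 to 6.73 in the 7 untreated ones (95% interval of the difference -0.27 to 1.28). This rests on Control 8, one of the 3 animals with a large 3′ minus 5′ signal: the IFI30 difference was 0.51 with it and 0.14 without the 3. Without the 3 animals the differences in Control ran from -0.10 for MAMU-DMA probe set 3 to 0.41 for MAMU-DMA probe set 2, and those in SIVE from -0.61 for MAMU-DMA probe set 3 to 0.35 for MAMU-DRA probe set 1. Of the 8 probe sets 5 changed sign in SIVE and 2 in Control, and by limma 0 were called in either group. In SIVE all treated animals were older than the untreated ones, so age and treatment cannot be told apart there.

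Of 8 listed transcription factors that act on class II promoters 7 were measured. By their brightest probe sets 0 rose and 0 fell by limma, which is close to the shares of all named genes, 5.72% higher and 1.51% lower. The median difference was 0.03 (log2), and of the 4 other probe sets of NFYA, a subunit of the factor that binds the Y box, 1 was called higher. CIITA, the class II transactivator, was at 5.71 to 6.06 in SIVE with a median of 5.91, against 5.79 to 6.43 in Control with a median of 5.96, and the groups overlapped. Its difference was -0.09 ± 0.07 (SE; 95% interval -0.24 to 0.06; adjusted p = 0.492). This probe set lay just above the median brightness. RFX5, a subunit of the RFX complex that binds the X box, averaged 7.78 ± 0.17 in SIVE and 7.52 ± 0.16 in Control (SD, n = 9 each), a difference of 0.27 that missed the threshold (adjusted p = 0.0593). RFX5 was called without SIVE 2 (adjusted p = 0.00839), without Control 7 (adjusted p = 0.0235) and without SIVE 2, SIVE 3 and Control 8 (adjusted p = 0.0152). In Control, CIITA was at 6.03 and 6.43 in the 2 animals with anti-CD8 and at 5.79 to 6.09 in the 7 without it, a difference of 0.29 (unadjusted p = 0.0128 and adjusted p = 0.304 by limma). This rests on Control 9, whose 2 arrays differed with an SD of 0.55 (log2), and the difference was 0.095 without that animal.

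Of the 12 listed class II chains and chaperones 8 were measured, and by limma 5 rose and 0 fell, where 5.72% of named genes rose and 1.51% fell, as given above. The median difference of the 8 was 1.28 (log2). MAMU-DRA, MAMU-DMA and CD74 are among the 5 and were picked with earlier results of these data known. The count and the median are thus a description. Besides these members, the called genes were MAMU-DPA, the alpha chain of DP, and MAMU-DQA1, the alpha chain of DQ. MAMU-DPA averaged 8.97 ± 0.63 in SIVE and 7.31 ± 0.56 in Control (SD, n = 9 each), 3.16-fold higher (adjusted p = 0.000341), though its groups overlapped. MAMU-DQA1 averaged 8.26 ± 0.66 in SIVE and 6.84 ± 0.32 in Control, 2.67-fold higher with no overlap (adjusted p = 0.000411). The name of its only probe set ends in the code for sets shared by several transcripts, so the value may not be that of MAMU-DQA1 alone. MAMU-DQB1, the DQ beta chain, differed by 0.41 (adjusted p = 0.163). MAMU-DOA and MAMU-DOB encode DO, which restrains the editor DM and is known mainly from B cells; they differed by -0.08 (adjusted p = 0.558) and 0.01 (adjusted p = 0.918). MAMU-DOB was dim, at 5.26 in SIVE and 5.25 in Control, and of its 2 other probe sets 1 was called higher. MAMU-DMB, the partner of MAMU-DMA, and the DRB1, DRB5 and DPB1 chains were not analysed here.

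Of 4 measured genes of the interferon gamma pathway, by limma 1 rose and 0 fell, where 5.72% of named genes rose and 1.51% fell. IRF1, a transcription factor induced by interferons, averaged 7.91 ± 0.57 in SIVE and 5.77 ± 0.22 in Control (SD, n = 9 each), 4.41-fold higher with no overlap (adjusted p = 2.63e-07). JAK2, a kinase of the interferon gamma receptor, differed by 0.68 (adjusted p = 0.069), and it was called without Control 8 (adjusted p = 0.0271) or without SIVE 9 (adjusted p = 0.0434). Of its 2 other probe sets 1 was called higher (adjusted p = 0.0189). IFNG, the cytokine itself, was dim in both groups, at 3.41 in SIVE and 3.44 in Control, so a difference could not be read at this brightness. IRF8, a myeloid transcription factor, differed by -0.08 in its brightest probe set (adjusted p = 0.788), while its 2 other probe sets were called higher, so its direction depends on the probe set.

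Of 11 measured genes of endolysosomal processing, by limma 6 rose and 0 fell, where 5.72% of named genes rose and 1.51% fell. The median difference was 0.46 (log2). IFI30 had the largest rise of the 11, but it is a member picked with earlier results of these data known. The count and the median include it. CTSH, an aminopeptidase of the lysosome, averaged 8.85 ± 0.54 in SIVE and 7.53 ± 0.30 in Control (SD, n = 9 each), 2.49-fold higher with no overlap (adjusted p = 0.000166). CTSL, a protease that degrades CD74 in the thymic epithelium of mice, was 1.39-fold higher (adjusted p = 0.00111), also with no overlap. CTSS, a protease that degrades CD74 in antigen-presenting cells, was 1.71-fold higher (adjusted p = 0.023), with overlap, and its 3 other probe sets were called higher too. MARCHF1, a ubiquitin ligase that takes class II off the surface, was 1.37-fold higher (adjusted p = 0.0127), and CTSZ was 2.09-fold higher (adjusted p = 0.0157).

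CD74 is also a receptor for the cytokine MIF, with CD44 as the signalling partner. Of 4 measured genes of this group, by limma 1 rose and 0 fell, where 5.72% of named genes rose and 1.51% fell. CD44 averaged 6.80 ± 0.32 in SIVE and 5.55 ± 0.16 in Control (SD, n = 9 each), 2.37-fold higher with no overlap (adjusted p = 4.33e-07). MIF differed by -0.02 (adjusted p = 0.897), its relative DDT by -0.21 (adjusted p = 0.307) and the receptor CXCR4 by 0.15 (adjusted p = 0.365).

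The products of costimulation genes give T cells the second signal or hold them back. Of 6 measured costimulation genes, by limma 2 rose and 0 fell, where 5.72% of named genes rose and 1.51% fell. CD86 averaged 7.58 ± 0.69 in SIVE and 5.52 ± 0.43 in Control (SD, n = 9 each), 4.18-fold higher with no overlap (adjusted p = 1.64e-05). CD40 was 1.33-fold higher (adjusted p = 0.0248), with overlap. CD274 differed by 0.35 (adjusted p = 0.0631) and PDCD1LG2 by 0.21 (adjusted p = 0.0559), both below the median brightness and both called without single animals: CD274 without Control 5 (adjusted p = 0.0485) or SIVE 3 (adjusted p = 0.0485), PDCD1LG2 without Control 3 (adjusted p = 0.0282), SIVE 7 (adjusted p = 0.0443) or SIVE 8 (adjusted p = 0.021). Of 12 measured class I presentation genes, 11 rose and 0 fell by limma, with a median difference of 1.61; the exception was MAMU-F, at -0.05 by its brightest probe set, while 1 of its 2 other probe sets was called higher by 2.44 (adjusted p = 1.18e-12). TAP1, a subunit of the peptide transporter, differed by 2.98 and NLRC5, the class I transactivator, by 2.96.

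**Figure D3:**
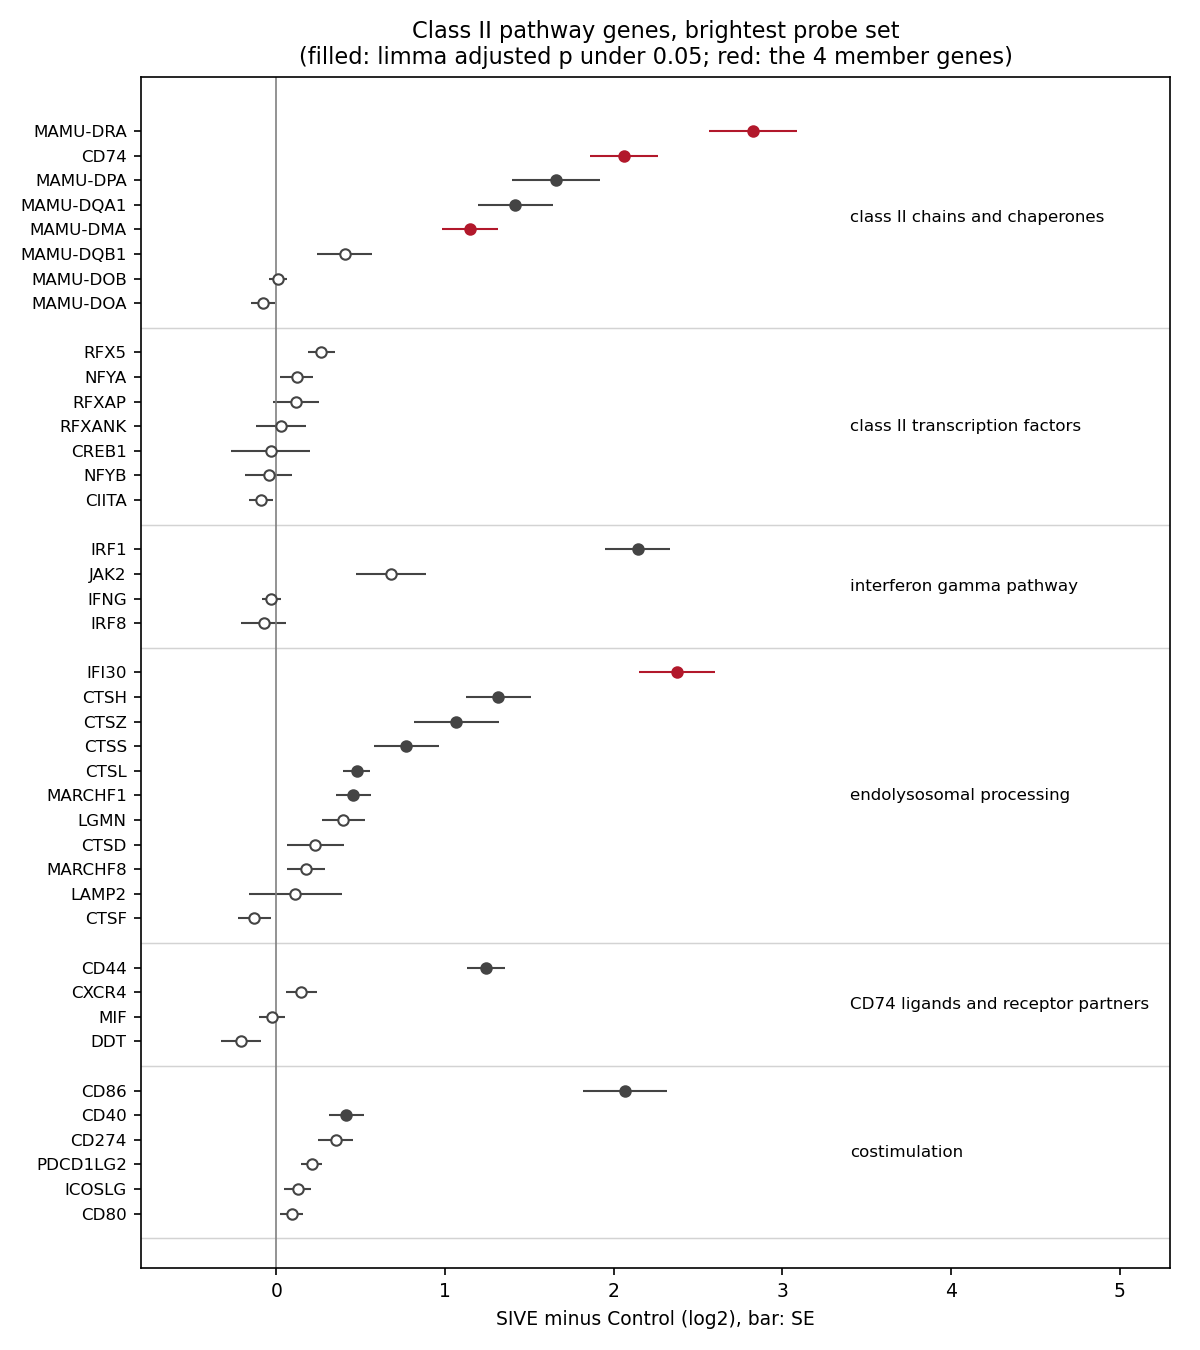
SIVE minus Control difference (log2, x axis; bars are SEs from limma) of the measured genes of 6 class II related lists (rows), with filled points for an adjusted p under 0.05 and red for the 4 member genes. The filled points lie to the right of 0, and CIITA and the other class II transcription factors lie near 0.

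Markers of cell types that carry class II were read beside the members. Of 13 measured myeloid cell markers, by limma 5 rose and 0 fell, where 5.72% of named genes rose and 1.51% fell. LYZ rose by 2.71 (log2), PTPRC by 1.52, CD14 by 1.18, AIF1 by 0.83 and FCGR3 by 0.61. The other probe set of AIF1 was not called. By their brightest probe sets the other 8 markers were not called, with differences from -0.35 for ITGAM to 0.96 for S100A8. MRC1 differed by -0.14. CD68, a lysosomal protein of macrophages, differed by -0.05 in its brightest probe set (adjusted p = 0.804) and by 1.14 in its other one (adjusted p = 9.58e-05), so its direction depends on the probe set. The mean level of the 13 was 7.18 to 8.00 in SIVE animals and 6.64 to 7.02 in Control animals, without overlap, and MSR1 and S100A8 were below the median brightness. Of 5 homeostatic microglia markers 1 rose and 0 fell by limma, SLC2A5 by 0.94. The other 4 were not called: GPR34 differed by -0.55, P2RY12 by -0.44 (limma adjusted p = 0.615), CX3CR1 by -0.15 and TMEM119 by -0.10. The mean level of the 5 was 6.47 to 7.76 in SIVE and 6.46 to 7.57 in Control. The part of these markers in the rise of the class II genes was not tested.

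Of 8 dendritic cell markers, by limma 0 rose and 0 fell, close to the shares of all named genes, 5.72% higher and 1.51% lower. CLEC9A, XCR1, LAMP3 and IRF4 were below the median brightness. The mean level of the 8 was 4.90 to 5.12 in SIVE and 4.95 to 5.25 in Control. Of 7 T cell markers 0 rose and 0 fell by limma, again close to those shares. Below the median brightness were 5 of them, and the mean level was 5.08 to 5.37 in SIVE and 5.08 to 5.51 in Control. The 0 calls in these short lists are not read as a result about the cells. The T cell genes CD3D, CD3E and CD3G, also listed, were not analysed here. CD4, the coreceptor that binds class II, averaged 5.86 ± 0.16 in SIVE and 5.82 ± 0.20 in Control (SD, n = 9 each), a difference of 0.05 (adjusted p = 0.794). JCHAIN rose by 2.81 (adjusted p = 0.000152) as the 1 of 6 B and plasma cell markers that was called, though its other probe set was not called. MS4A1, or CD20, differed by 0.36 (adjusted p = 0.108), and of its 3 other probe sets 1 was called higher, by 0.25 (adjusted p = 0.0254). The median difference of the 6 was -0.07 (log2). With single animals left out, CD79A differed by -0.21 to -0.16 and CD79B by -0.31 to -0.24, and neither was called by limma in these runs. For the 6 markers the mean level was 5.50 to 6.40 in SIVE and 5.38 to 5.70 in Control. Of 7 endothelial cell markers 3 rose and 0 fell, PECAM1 by 0.83, VWF by 0.98 and CDH5 by 0.52, and the mean level was 7.08 to 7.88 in SIVE and 6.83 to 7.49 in Control. Of 5 astrocyte markers GFAP rose by 0.36 and SLC1A2 fell by 0.52, of 5 neuron markers TUBB3 fell by 0.51, and of 2 oligodendrocyte markers both MBP and UGT8 fell, by 0.32 and 0.58. The part of these markers in the class II difference was not tested.

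The same SIVE animals were high or low in most member probe sets. SIVE 2 had the highest SIVE level in 7 of the 8 probe sets and SIVE 7 in the remaining 1, and both lay above the SIVE median in all 8. SIVE 6 was lowest in 5 of the 8, and SIVE 6 and SIVE 8 lay below the median in all 8. SIVE 2 carries the anti-CD8 label and SIVE 7 does not. The mean of the myeloid markers was 7.76 in SIVE 2, 7.74 in SIVE 7, 7.38 in SIVE 6 and 7.18 in SIVE 8, and SIVE 2 is one of the 3 animals with a large 3′ minus 5′ signal. Among the Control animals, Control 7 was the lowest in all 8 probe sets, and it also had the lowest myeloid marker mean, at 6.64. Control 1 lay below the Control median in all 8 as well, with a myeloid marker mean of 6.88. The order by markers was not that by members throughout: SIVE 3 had the highest myeloid mean, at 8.00, and a median deviation of 0.05 from the SIVE medians of the member probe sets. Control 8 had the highest Control mean, at 7.02, and a median deviation of 0. The part of the marker level and of the 3′ signal in this order was not tested.

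**Figure D4:**
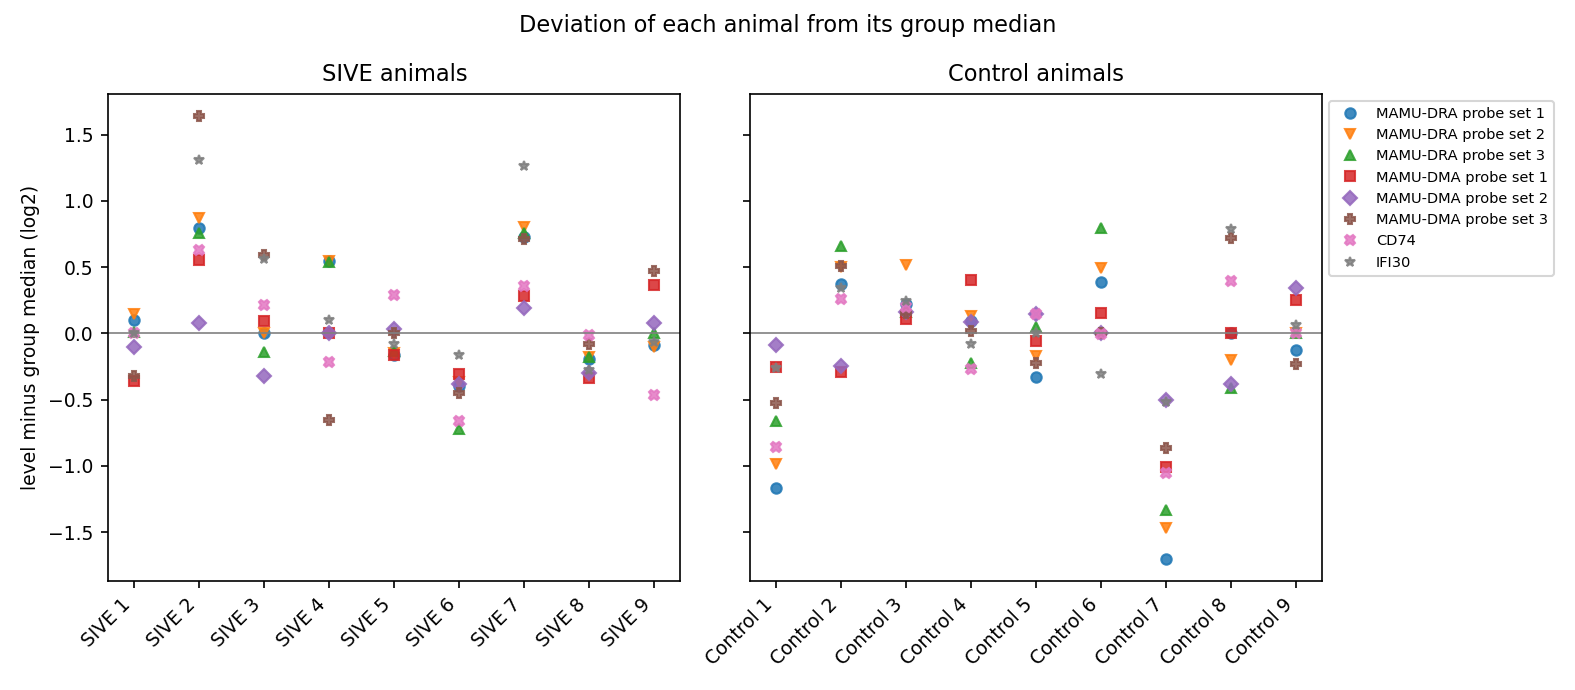
Level of each member probe set minus the median of its group (log2, y axis) in each SIVE and each Control animal (x axis). SIVE 2 and SIVE 7 lie above the line in all 8 probe sets, and SIVE 6, SIVE 8, Control 1 and Control 7 lie below it in all 8.

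How the 4 genes vary with each other over the 9 SIVE animals was tested in 18 relations, which also set each gene against CIITA, the interferon-induced gene ISG15 and the brightest virus probe set. By Pearson's r, 0 of the 18 passed adjustment (exact permutation of pairings), and 7 had an unadjusted p under 0.05. MAMU-DRA and IFI30 had r = 0.835 (exact permutation p = 0.0181, adjusted 0.109) and Spearman's rho = 0.933 (exact permutation p = 0.00075, adjusted 0.0135). The relation by r rests on SIVE 2 and SIVE 7, the highest animals, since r was 0.405 without them. CD74 and CIITA had r = 0.763 (exact permutation p = 0.0153, adjusted 0.109) and rho = 0.833 (adjusted 0.0744), with r = 0.894 without SIVE 2 and SIVE 6. Among SIVE animals the SD of CIITA was 0.093 (log2), while its median SD between the 2 arrays of an animal was 0.102. The differences of CIITA between SIVE animals were thus no larger than those between arrays, which limits what its relations can show. CD74 and IFI30 had r = 0.724 (exact permutation p = 0.0167, adjusted 0.109), and MAMU-DMA and IFI30 had r = 0.757 (exact permutation p = 0.0287, adjusted 0.119). Against the virus probe set, r was 0.667 for MAMU-DMA (exact permutation p = 0.0493, adjusted 0.127) and 0.410 for MAMU-DRA (exact permutation p = 0.264, adjusted 0.297). Leaving out single animals brought relations past the threshold by r: MAMU-DRA with IFI30 without SIVE 3 (r = 0.875), CD74 with CIITA (r = 0.934) and IFI30 with ISG15 (r = 0.722) without SIVE 6, and MAMU-DMA with IFI30 without SIVE 9 (r = 0.941). Within the 2 anti-CD8 labels the SIVE animals number 4 and 5, too few for a value of their own.

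**Figure D5:**
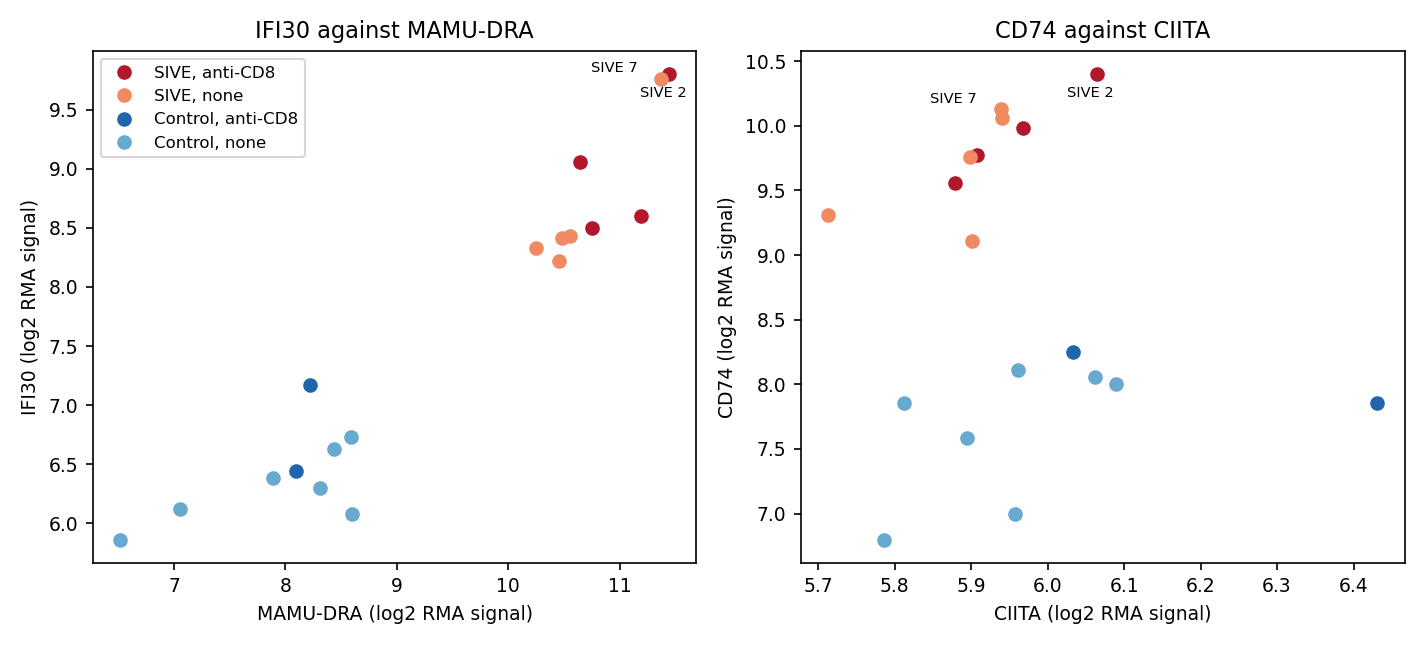
IFI30 against MAMU-DRA (left) and CD74 against CIITA (right) in each animal, all in log2 RMA signal by the brightest probe set. SIVE 2 and SIVE 7 lie at the top right of the SIVE animals on the left, and on the right the groups are apart on the CD74 axis and overlap on the CIITA axis.

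The genes whose pattern was most like each member were listed by Pearson's r over the 18 animals, on deviations from the mean of SIVE or of Control, among 10055 genes at or above the median brightness. All share the same arrays, and the values are a description. For MAMU-DRA these were LOC705588 with r = 0.843, ARHGAP15 with r = 0.803, CD74 with r = 0.787 and HVCN1 with r = 0.761. RefSeq gives LOC705588 the synonym Mamu-DRB, the beta chain that pairs with MAMU-DRA, and places it 2 protein-coding genes from MAMU-DRA; it differed by 1.73 ± 0.24 (SE, log2) between SIVE and Control. For CD74 they were HTRA3 with r = 0.862, CD6 with r = 0.809, MAMU-DRA with r = 0.787 and PCOLCE with r = 0.777. For MAMU-DMA they were CCL8 with r = 0.746, MAMU-DRA with r = 0.729, HVCN1 with r = 0.729 and YIPF1 with r = 0.722. For IFI30 they were ARPC1B with r = 0.894, LOC715814 with r = 0.889, CFB with r = 0.885 and NLRC5 with r = 0.882. MAMU-DRA, CD74 and MAMU-DMA thus each had another member among their 4 nearest genes, and IFI30 had none. CD74 and MAMU-DMA were not near each other, with r = 0.534: MAMU-DMA was at place 856 for CD74, and CD74 at place 110 for MAMU-DMA. The r of MAMU-DRA with CD74 was 0.620 within SIVE and 0.879 within Control. CIITA had r between 0.278 and 0.500 with the 4 genes. A run without SIVE 2, SIVE 3 and Control 8 was chosen after seeing the data. In it, the r of the 4 nearest genes with their member ran from 0.694 (PCOLCE with CD74) to 0.881 (LOC705588 with MAMU-DRA). That of CIITA ran from 0.219 to 0.444, and the ranks were not redrawn.

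The neighbours of the members on the chromosome were the 2 protein-coding genes on each side in the order of RefSeq, and 9 of them had a probe set. LOC705588 was the 1 called by limma. The other 8 were not called and had differences from -0.26 (log2) for MPV17L2, beside IFI30, to 0.02 for NDST1, beside CD74, with adjusted p values from 0.0672 to 0.922. BRD2, near MAMU-DMA, differed by -0.03 and NOTCH4, near MAMU-DRA, by -0.12.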

How the data were processed

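Hippocampal RNA of 9 SIVE and 9 Control animals was read on 36 arrays. The deposited values are log2 signals made by the authors with RMA, per the submitters' processing notes; the version and probe definitions are not given in the sources used here. Whether the 2 arrays of an animal read separate tissue pieces is also not given, so they were averaged and counted as 1 replicate. The number of animals limits the precision. Of 52865 probe sets, 158 Affymetrix control and reporter sets were left out and 52707 were tested in R 4.3.3 by limma 3.58.1 (functions lmFit and eBayes; two-sided; Benjamini-Hochberg over all; threshold 0.05). The comparison of SIVE with Control took all 18 animals; the anti-CD8 comparisons used 1 mean for each of the 4 combinations of labels with a shared spread.

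Gene names came from the probe table, which gives 1 symbol to 24969 probe sets, several to 361 and none to 27535. A gene with several probe sets was represented by the brightest. Named were the members, from each of 16 lists the 4 measured genes with the smallest adjusted p, a set of class II genes and the 4 genes most like each member. MAMU-DQA1, MAMU-DQB1, CTSZ, AIF1, CD68, ITGAM, MRC1, CX3CR1, MAMU-F, MSR1, S100A8, CLEC9A, XCR1 and the chromosomal neighbours were chosen after their values were seen. Members and lists were chosen with earlier results of these data known. RefSeq's assembly T2T-MMU8v2.0 served for gene names and order. Exact permutation tests doubled the smaller tail. The labels do not say that replicate numbers pair animals, so the main fit used no block. Same-numbered animals of the groups did not deviate together (r of -0.49 to 0.09), but such an r cannot exclude a shared origin or batch. On simulated data with known changes the limma step was tested first. Python 3.11.15 with pandas 2.3.3, numpy 2.4.6, scipy 1.17.1 and, for figures, matplotlib 3.10.9 was used. Alternatives covered normalization, dim probe sets, moderation, arrays, covariates, the block and single animals.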

Additional observations from a re-analysis of the deposited data

Results flagged for a closer look

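In 45 groups of 4 to 9 animals, 6 had a highest or lowest animal beyond Dixon's 95% critical value, and chance alone gives about 1 such group in 20. SIVE 7 was far above the other SIVE animals without anti-CD8 in MAMU-DRA probe set 1 (11.38), MAMU-DRA probe set 2 (10.65) and IFI30 (9.76). Control 7 was far below the other Control animals in MAMU-DMA probe set 1 (5.97). CIITA was high in Control 9 among the Control animals (6.43), where the 2 arrays of that animal differed with an SD of 0.55 (log2), and low in SIVE 9 among the SIVE animals without anti-CD8 (5.71).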

How the results depend on the processing

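Over 3973 values under alternative settings, 3881 kept their side of the threshold, 38 lost a call, 50 gained one, 3 counts moved by over 1.5 times and 1 value reversed. The reversal was that of IRF8, which differed by -0.08 in its brightest probe set and by 0.31 as the mean of its probe sets (adjusted p = 0.0102 by limma). SIVE against Control kept 8 of 8 member probe sets called under each alternative run, the replicate block included. Without anti-CD8 the 8 calls fell to 5 with the replicate block. With anti-CD8 the 5 calls were 1 with age as a covariate, 0 with the replicate block, 0 without SIVE 2, SIVE 3 and Control 8, and 3 to 6 when single animals were left out. Relations called by r among SIVE animals, 0 of 18, were 0 to 2 when single animals were left out. The labels do not say that the replicate numbers pair the animals, and the block changed no other count of member calls. The cause of these changes was not tested.

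Over the whole table the calls for SIVE against Control numbered 2595, and 1368 to 5294 over the alternatives. Without anti-CD8 they numbered 1652 (531 to 3197), with it 555 (12 to 1661), for the change of effect 0 (0 to 2), for anti-CD8 in SIVE 1 (0 to 1930) and in Control 0 (0 to 5963). CD40, CTSS and MARCHF1 lost their calls with the second array of each animal alone and with the replicate block. The block also took those of PECAM1 (adjusted p = 0.0527), VWF (0.097), CDH5 (0.0807), GFAP (0.0698) and TUBB3 (0.0539), and the mean of all probe sets of a gene those of VWF (0.0758) and CD40 (0.127). Without SIVE 2, SIVE 3 and Control 8, RFX5, JAK2 and EMCN gained a call as higher in SIVE, and CD79B gained one as lower. RFX5 also gained a call as higher with anti-CD8 as a covariate (adjusted p = 0.0183 by limma). Dim probe sets such as IFNG and CLEC9A limit what can be read, since signal near background hides differences.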
